A study of Mus musculus with 16 samples.

Results

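Fgl2, Igfbp7, Ctla2a, Ifitm1, Ifitm2 and Ifitm3 are 6 genes that were chosen by their measured values, as genes that are high in the main effector state of lung Th2 cells. They are 6 of the 31053 genes counted in the lung and mesenteric lymph node (MLN) libraries and 6 of the 32285 genes counted in a later run of mediastinal lymph node (medLN) and MLN cells. Since lung and MLN cells of the first run served to choose them, their levels in these cells are given as a description without a test, and tests of the 6 genes are given only in the later run, whose cells the rule did not use.

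All mice were 4get mice on a C57BL/6 background, in which eGFP reports transcription of Il4, and all were infected with the helminth Nippostrongylus brasiliensis 10 days before harvest, so no group was uninfected. CD4+IL-4eGFP+ cells were sorted from perfused lung and from MLN of 2 mice aged 13 weeks and gave the libraries lung 1, lung 2, MLN 1 and MLN 2, each with a TCR library of the same cells. In the later run, medLN and MLN cells of 2 mice aged 10 weeks were labeled with hashtags for mouse and organ, and CD4+ T cells were sorted by eGFP into a positive (IL-4eGFP+) library and a negative (IL-4eGFP-) one. Each sort gate is thus 1 library, and gate and library cannot be told apart. The reporter marks early as well as late stages of Th2 differentiation, and perfused lung may still hold some intravascular cells. Lungs were digested with a dissociation kit and purified on Percoll, steps that the study does not give for lymph nodes. Organ and tissue processing therefore cannot be told apart in any comparison of lung with MLN.

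After filters on quality and on a productive TCRα and TCRβ chain, 1082 lung 1, 416 lung 2, 2462 MLN 1 and 754 MLN 2 cells were kept, with a median of 4971 to 6910 UMIs per cell. The 8 hashtag samples held 1992 to 2249 cells each, with a median of 3165.5 to 3666.5 UMIs. Between 0 and 10 barcodes were shared by any pair of lung and MLN libraries, 7 to 38 by a library of each run, and 155 by the IL-4eGFP+ and IL-4eGFP- libraries, of 9603 and 10080. Levels are UMIs summed over the cells of a sample, per 1000000 UMIs of all genes other than TCR genes (CPM). Since a sum does not show whether more cells carried a gene or each cell carried more of it, shares of cells with at least 1 UMI are given beside it. Nearly all cells carried the T cell gene Cd3e, 1070 of 1082 from lung 1, 408 of 416 from lung 2, 2441 of 2462 from MLN 1 and 753 of 754 from MLN 2.

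Fgl2 (fibrinogen-like protein 2) occurs as a secreted form, which regulatory T cells use to restrain dendritic cells and B cells through inhibitory Fc receptors, and as a membrane form with prothrombinase activity. Igfbp7 is a secreted protein that binds insulin-like growth factors weakly and is best known from endothelium and matrix. Ctla2a resembles the propeptide of cysteine proteases and inhibits cathepsin L. The Ifitm genes encode small membrane proteins that interferons induce and that block the entry of enveloped viruses into cells. In T cells they are also known outside of interferon responses.

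On the GRCm38 build, Fgl2 (chr5:21372642-21378374, plus strand) and Igfbp7 (chr5:77349240-77408041, minus strand) lie apart on the same chromosome, and Ctla2a lies at chr13:60934155-60936625 on the minus strand, next to its paralog Ctla2b (chr13:60895350-60897447). Ifitm2 (chr7:140954837-140955987, minus strand), Ifitm1 (chr7:140967221-140969825, plus strand) and Ifitm3 (chr7:141009586-141010770, minus strand) are neighbors in the Ifitm cluster of chromosome 7. Stretches of the mouse start regions are shown because Ifitm2 and Ifitm3 were detected in the same lung cells, while most interferon-stimulated genes were lower in lung than in MLN. Letters were taken from RefSeq promoter sequences of GRCm38.p6, which hold 250 bases before and 50 after a transcript start, and capitals mark GAAA, any 2 bases and GAAA again, the core of the interferon-stimulated response element, searched on both strands. The classical interferon-stimulated gene Isg15 is given for comparison. The first stretch (chr7:140955988-140956061) and the second (chr4:156200845-156200918) run from 100 to 27 bases before the RefSeq start. The third (chr7:141010715-141010744) covers the first 30 bases of the RefSeq transcript, and all 3 are minus strand. For Ifitm2 and Ifitm3 the RefSeq start is not the gene start given above. By the positions above, the first stretch directly precedes Ifitm2 and the third lies within Ifitm3.
Ifitm2: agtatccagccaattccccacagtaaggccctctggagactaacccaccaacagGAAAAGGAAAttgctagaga
Isg15: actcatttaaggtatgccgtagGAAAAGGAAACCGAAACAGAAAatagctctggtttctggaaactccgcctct
Ifitm3: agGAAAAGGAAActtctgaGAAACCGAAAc

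Ifitm2 held 1 match and Ifitm3 held 2, against 3 overlapping matches in Isg15. The motif occurred in 3.44% of the 32851 promoter windows. The windows of Fgl2, Igfbp7, Ctla2a (2 starts) and Ifitm1 held no match, which says only that these letters are not there. The window of Ifitm1 (chr7:140967826-140968125) lies within the gene as placed above, so bases before that gene start were not searched. AGATAA, bound by GATA factors, occurred in 11.2% of windows and among the 6 genes only in 1 of the 2 windows of Ctla2a. As for the reads, none of the 50-base words of Fgl2 and Igfbp7 transcripts occur in another gene, against 25.5% for Ctla2a and 48.5% for Ifitm2. Most of these are in the overlapping genes Gm49391 (18.2%) and Gm45717 (36.1%), which held at most 3 UMIs in any lung or MLN library and are not among the genes of the node table. These low counts do not show whether reads from shared words were left out of Ctla2a and Ifitm2, which was not tested. Ctla2a shared 11.4% of its words with Ctla2b, so these 2 are not fully separated by the counts. Ifitm2 and Ifitm3 shared some words too, as 5.56% of Ifitm3 words were in Gm45717, Ifitm1 or Ifitm2.

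In lung, all 6 genes were counted above both MLN libraries, most of all Fgl2, Igfbp7 and Ctla2a. This is what they were chosen for, so no test is given. With 2 libraries per organ such an order carries little weight, and the share of all genes with it was not counted. Of 10588 genes tested, 17.0% were called higher in lung. For Ifitm1 the distance rested on 1 barcode of each lung library, as given below. Fgl2 stood at 322 CPM in lung 1 and 218 CPM in lung 2, against 4.09 CPM in MLN 1 and 8.08 CPM in MLN 2, a 44.4-fold higher mean in lung. Some 58.2% of lung 1 cells (exact 95% interval 55.2 to 61.2%) and 49% of lung 2 cells carried an Fgl2 UMI, against 1.42% and 2.92% of MLN cells. The gene was thus detected in about every other lung cell and in few MLN cells.

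Igfbp7 was at 110 and 71 CPM in lung 1 and lung 2 and at 0.762 and 0.898 CPM in MLN 1 and MLN 2, a 109-fold higher mean in lung. It was detected in 23.1% and 19.5% of lung cells but in only 8 of 2462 MLN 1 cells and 3 of 754 MLN 2 cells. Endothelial cells make Igfbp7, and the summed level of 12 endothelial markers was 90.5, 90.3, 89.5 and 88.7 CPM in lung 1, lung 2, MLN 1 and MLN 2, from 5, 4, 5 and 5 of the 12 genes. Among these markers, Cldn5, Esam, Tek, Tie1 and Plvap were at 0 in all 4 libraries, and Cdh5 was at 0 in both lung libraries. The sum was made up mostly of Pecam1 and Calcrl, which went opposite ways. Pecam1 was at 35.6 and 38.4 CPM in lung and 68.8 and 70.7 CPM in MLN. Calcrl was at 51.6 and 48 CPM in lung and 17.1 and 15.7 CPM in MLN. The equal sums thus do not mean that each marker was equal.

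Ctla2a stood at 410 and 334 CPM in lung 1 and lung 2 and at 5.89 and 14.4 CPM in MLN 1 and MLN 2, a 36.7-fold higher mean in lung. Its share was 57.2% and 49.8% of lung cells and 2.32% and 4.91% of MLN cells. Its paralog Ctla2b had a log2 fold of 4.83 in lung against MLN, which is a description too, since the shared words keep the pair from being read as separate genes.

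The Ifitm genes were less different between the organs. Ifitm2 was counted at 98.8 and 65.2 CPM in lung and 37.4 and 35 CPM in MLN, a 2.26-fold higher mean in lung, and in 28.4% and 16.6% of lung and 9.71% and 10.9% of MLN cells. Ifitm3 was counted at 61.6 and 85.3 CPM in lung and 17.6 and 5.61 CPM in MLN, a 6.33-fold higher mean, and in 13.8% and 15.1% of lung and 3.61% and 1.59% of MLN cells. Neither gene overlapped between the organs, but both were plainly present in MLN.

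Lung cells had more UMIs than MLN cells, so shares were also taken after thinning each cell to 2000 UMIs, which left 1068, 408, 2411 and 743 cells of lung 1, lung 2, MLN 1 and MLN 2. Fgl2 then remained in 37.5% and 31.4% of lung cells and in 0.498% and 1.48% of MLN cells. Igfbp7 was left in 13.3% and 10.5% of lung cells, in 0.0415% of MLN 1 cells and in none of the MLN 2 cells, and Ctla2a in 36.1% and 33.8% against 0.954% and 2.02%. For Ifitm2 the thinned shares were 11.8% and 7.6% against 4.52% and 4.17%, and for Ifitm3 6.18% and 10.3% against 1.78% and 0.673%. The order of the organs was the same with and without thinning for these 5 genes.

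Markers of other cell types moved most with the organ in the following lists. The macrophage and monocyte list summed to 276 and 284 CPM in lung and 51.6 and 79.5 CPM in MLN, but Lyz2, C1qa, C1qb and C1qc were at 0 in both lung libraries and nearly all of the lung sum, 272 and 281 CPM, was Ccr2, a chemokine receptor that effector T cells carry too. Basophil and mast cell genes summed to 31.3 and 16.5 CPM in lung and 6.09 and 3.59 CPM in MLN. Of these sums, Cd200r3 alone gave 24 and 10.4 CPM in lung and 5.95 and 3.14 CPM in MLN. Epithelial (6.96 to 10 CPM), fibroblast and mural (0.943 to 2.02 CPM), B cell (0.358 to 3.46 CPM) and NK and CD8 T cell markers (6.74 to 11.8 CPM) were low in all 4 libraries. Only 185 of 843 lung 1 and 58 of 295 lung 2 effector-like cells had no UMI of the endothelial, epithelial, fibroblast, macrophage, B, NK and CD8 T cell markers, which include Ccr2. In these cells, Fgl2 was at 463 and 296 CPM, Igfbp7 at 183 and 135 CPM and Ctla2a at 447 and 327 CPM in lung 1 and lung 2. Ifitm2 was at 105 and 69.2 CPM there, Ifitm3 at 93.9 and 65.4 CPM and Ifitm1 at 1.72 and 0 CPM, where the 65.4 CPM of Ifitm3 in lung 2 rested on 17 UMIs and compared with 122 CPM in all lung 2 effector-like cells.

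**Figure D1:**
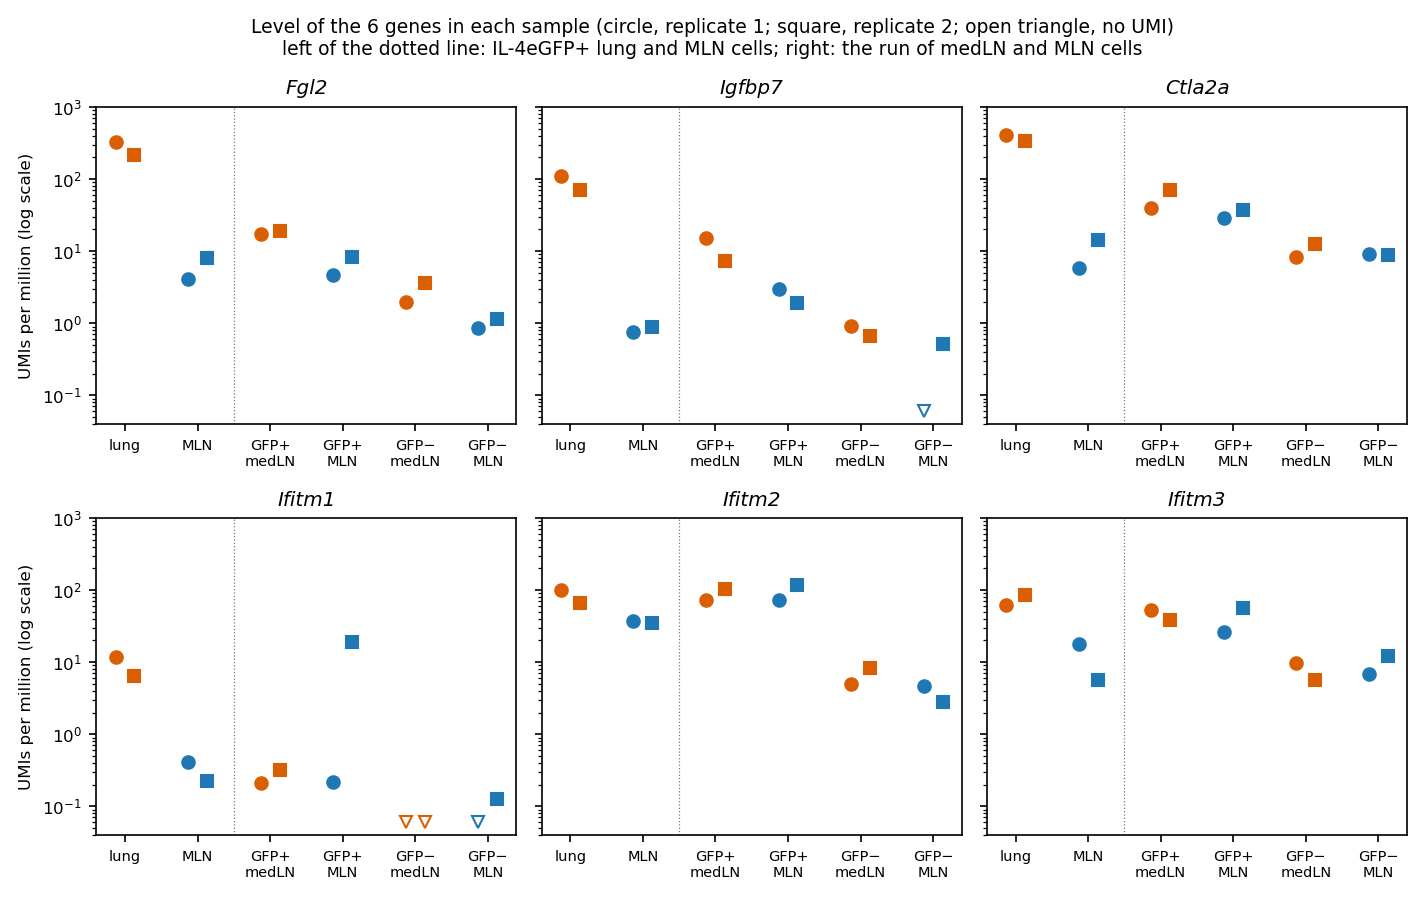
CPM on a log scale (y axis) of each of the 6 genes in the 12 samples, grouped by organ and sort gate (x axis); each point is 1 sample (orange, lung or medLN; blue, MLN; circles and squares, replicates 1 and 2), the first run is left of the dotted line, and open triangles stand for samples without a UMI. Fgl2, Igfbp7 and Ctla2a are high in lung of the first run (71 to 410 CPM). In the later run they fall from IL-4eGFP+ medLN to IL-4eGFP+ MLN and IL-4eGFP- cells. Ifitm1 is above 1 CPM only in both lung samples and in IL-4eGFP+ MLN 2.

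Ifitm1 was a different case. It was counted at 11.7 and 6.45 CPM in lung and 0.415 and 0.225 CPM in MLN, but only 5 lung 1 and 3 lung 2 cells carried it, and 1 barcode of each library held nearly all of it. A single lung 1 barcode held 95 of 99 UMIs together with 39 UMIs of all 6 basophil and mast cell genes examined, 17 of them of the basophil protease gene Mcpt8, and 2 UMIs of the T cell gene Cd3e. A single lung 2 barcode held 16 of 18 UMIs, with 12 UMIs of the same 6 genes and 10 of Cd3e. Without these 2 barcodes, Ifitm1 was at 0.472 CPM in lung 1 and 0.722 CPM in lung 2, near the level of MLN.

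Barcodes that had been left out for lack of a TCR chain carried the gene at a high level. The basophil and mast cell list (Mcpt8, Cd200r3, Fcer1a, Ms4a2, Cpa3 and Gata2) was added after the values were seen. Of all lung barcodes that passed the quality filters, 52 in lung 1 and 30 in lung 2 carried 3 or more genes of the list, and each of them carried Ifitm1. These barcodes held 1683 of the 1705 Ifitm1 UMIs of lung 1 and 784 of the 808 of lung 2. All of these barcodes came from the sort of CD4+IL-4eGFP+ cells, and which cells they are was not tested.

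**Figure D2:**
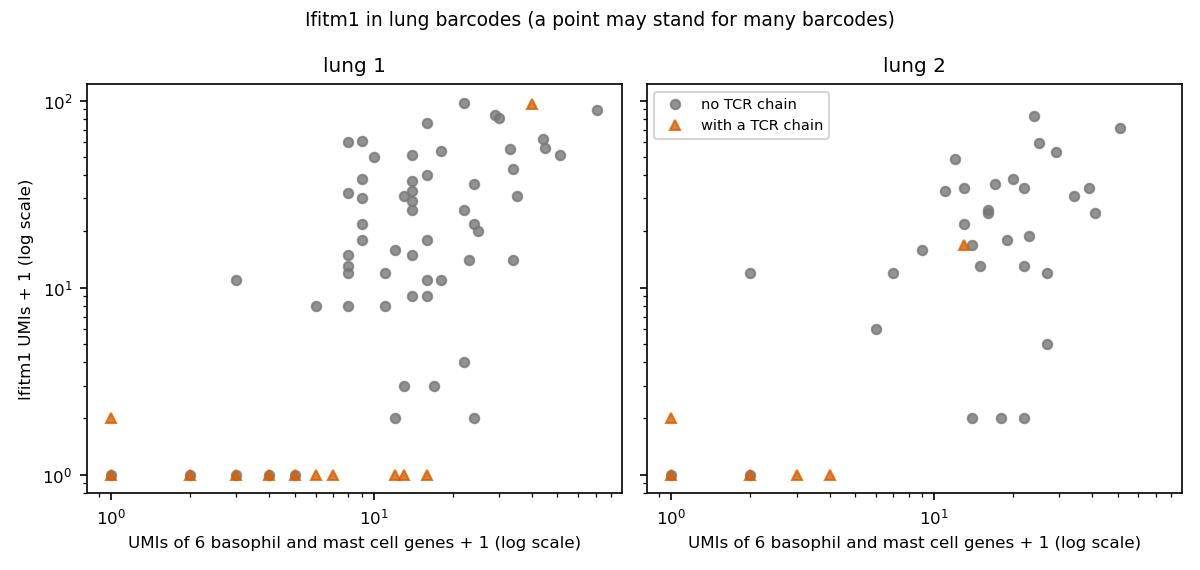
Ifitm1 UMIs plus 1 (y axis) against the summed UMIs of 6 basophil and mast cell genes plus 1 (x axis) in every lung barcode that passed the quality filters, both on log scales, in lung 1 (left) and lung 2 (right); gray circles are barcodes without a TCR chain and orange triangles those with one, and a point may stand for many barcodes. Ifitm1 is nearly confined to barcodes with these genes, and in each library 1 barcode with both Ifitm1 and these genes had a TCR chain. Other barcodes with a TCR chain held UMIs of these genes without Ifitm1.

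The other genes were also read in the barcodes with 3 or more of these genes, where Ifitm2 was at 686 and 445 CPM, Igfbp7 at 109 and 69.6 CPM, Fgl2 at 151 and 20.9 CPM and Ctla2a at 8.41 and 0 CPM in lung 1 and lung 2. Of the cells kept for the comparisons, only 1 in each lung library and none in MLN was of this kind. The one of lung 1 held 18 of the 36 Fgl2 UMIs and both Ctla2a UMIs of the lung 1 barcodes with these genes. In the 51 such lung 1 barcodes without a TCR chain, Fgl2 was at 80.2 CPM and Ctla2a at 0 CPM.

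To place the genes among cell states, the lung and MLN cells were clustered with the 6 genes and the TCR genes held out. The largest of 12 clusters, with Cxcl2, Calca, Il5, Areg, Il1rl1, Ccr8, Hlf and Il13 among its leading genes, was called lung effector-like from listed markers and held 843 lung 1, 295 lung 2 and 1 cell of each MLN library. Since these were 843 of the 1082 lung 1 and 295 of the 416 lung 2 cells, most UMIs of many genes would lie in it. The share of cells is not the share of all UMIs, as these cells had a median of 6743 and 5491 UMIs in lung 1 and lung 2. Proliferating-like lung cells had 14970 and 12084. It carried 93.1% and 91% of the lung 1 and lung 2 UMIs of Fgl2, 93.1% and 96% of Igfbp7 and 88.9% and 86.7% of Ctla2a. For Ifitm2 it carried 82.8% and 75.8%, the lowest shares of these 5 genes, and for Ifitm3 92.9% and 87%. Per UMI, Ifitm2 was at 115 and 81.1 CPM in this cluster against 98.8 and 65.2 CPM in all lung 1 and lung 2 cells. The genes were chosen as high in this state, so these shares are a description. All 99 Ifitm1 UMIs of lung 1 were in 5 cells of this cluster and none of those of lung 2, where 16 of 18 were in 1 proliferating-like cell. Fgl2 stood at 420 and 325 CPM in lung effector-like cells and in 67.9% and 61.7% of them. Igfbp7 was in 27.6% and 25.4% of these cells (143 and 112 CPM), Ctla2a in 64.2% and 57.6% (511 and 475 CPM), Ifitm2 in 29.1% and 18.3% (115 and 81.1 CPM) and Ifitm3 in 15.5% and 17.6% (80.2 and 122 CPM). For comparison, follicular helper-like cells, nearly all from MLN and at a median depth of 5558 UMIs against 6395, carried Fgl2 in 2 of 993 cells, Igfbp7 in 2, Ctla2a in 5, Ifitm2 in 78 and Ifitm3 in 7, so that Ifitm2 alone was found in more than a few of them. At a clustering resolution of 1.2 the effector-like cluster shrank to 384 lung 1 and 89 lung 2 cells, of which 82.8% and 76.4% carried Fgl2 and 40.9% and 34.8% Igfbp7, whereas Ctla2a, at 503 and 434 CPM, was not higher than before.

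Lung cells outside that cluster differed by state. In proliferating-like lung cells, led by cell cycle genes, Fgl2 was at 119 and 86.8 CPM, Igfbp7 at 39.5 and 12.9 CPM and Ctla2a at 219 and 132 CPM. In proliferating-like MLN cells the same genes were at 1.63 and 4.09, 0 and 6.13, and 8.67 and 20.4 CPM. Since the genes were chosen as high in lung, this order of the organs is a description. In lung migrating-like cells, which carried Ccr7, S1pr1 and Klf2, Fgl2 was at 8.53 and 2.73 CPM from 7 UMIs and 1 UMI, against 4.09 and 8.08 CPM in all MLN cells. Igfbp7 was at 7.31 CPM in lung 1 from 6 UMIs in 2 cells and at 0 CPM in lung 2, against 0.762 and 0.898 CPM in all MLN cells. Ifitm1 had no UMI in the lung migrating-like cells. Ctla2a was at 69.4 and 71.1 CPM in these cells, in 12.3% and 14% of them, against 5.89 and 14.4 CPM in all MLN cells. The migrating-like cluster of MLN had Ctla2a at 14 and 43.5 CPM, in 6.85% and 14% of its MLN 1 and MLN 2 cells. Fgl2 was at 0 and 6.69 CPM there, and Igfbp7 had no UMI. In this cluster Ctla2a, from 11 and 13 UMIs, was thus above its level in all MLN cells, while Fgl2 and Igfbp7 were not. How far the distance between the organs goes with the state of the cells was not tested.

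Within MLN, the genes did not share 1 cluster. MLN effector-like cells, led by Ccr9 and Nmur1 among others, had Fgl2 at 35.8 and 37.3 CPM in MLN 1 and MLN 2 and held 71.2% and 50% of all MLN Fgl2 UMIs. Their Ifitm2 was at 183 and 135 CPM, which was above the 115 and 81.1 CPM of lung effector-like cells. Their Ifitm3 was at 84.4 CPM in MLN 1 but 8.3 CPM in MLN 2, and their Igfbp7 at 6.82 and 2.07 CPM from 8 UMIs and 1 UMI. Innate-like cells, with Zbtb16 and Klrb1c, had Fgl2 at 31.9 and 64.6 CPM and Ctla2a at 43.9 and 88.8 CPM but no UMI of Igfbp7, Ifitm1 or Ifitm2 in 52 cells of MLN 1 and 26 of MLN 2, which allows shares of cells with a UMI of up to 5.77% and 11.5%.

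Interferon-responding-like MLN cells, with Isg15 at 1556.4 and 1110.9 CPM, had Ifitm3 at 31.5 and 88.6 CPM, Ifitm2 at 25.2 and 11.8 CPM and Fgl2 at 0.968 and 0 CPM. Lung effector-like cells had Isg15 at only 69.2 and 74.6 CPM, and their Ifitm2 (115 and 81.1 CPM) was above that of the interferon-responding-like cells while Ifitm3 (80.2 and 122 CPM) overlapped with it. Ifitm3 lay in few of the interferon-responding-like cells, 5.68% and 8.11%.

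**Figure D3:**
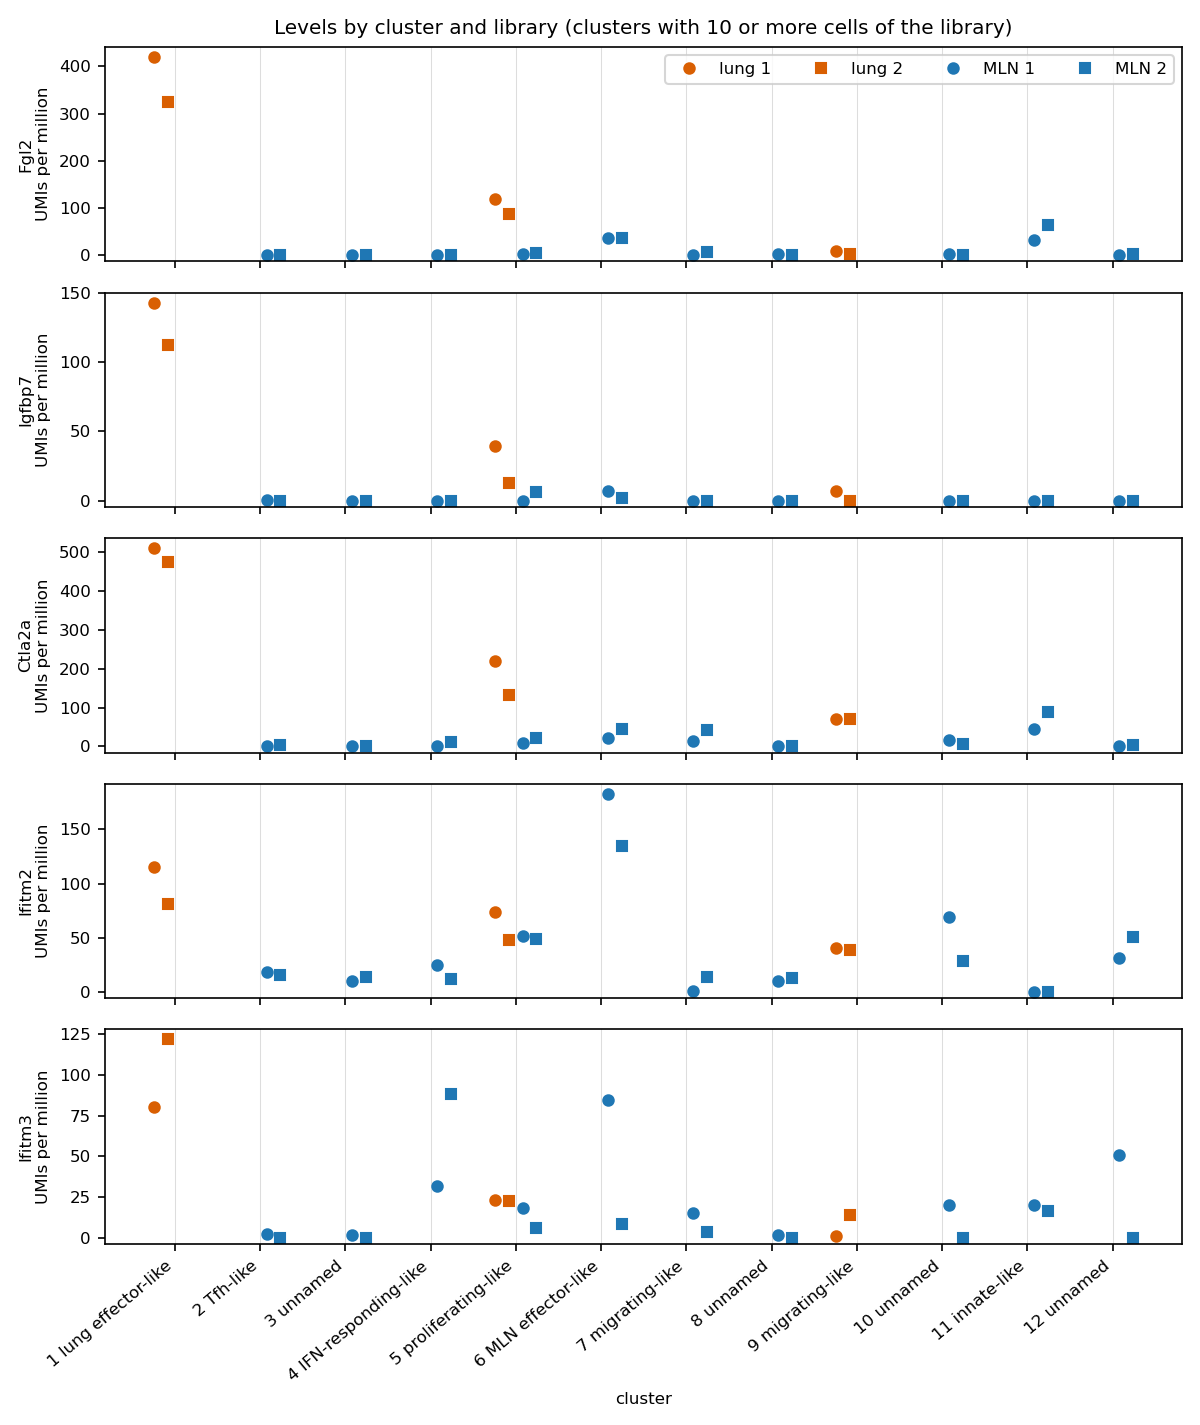
CPM (y axis) of 5 of the genes in 12 clusters of lung and MLN cells (x axis), with 1 point for each library that has 10 or more cells in the cluster (orange, lung; blue, MLN; circles and squares, replicates 1 and 2). Fgl2, Igfbp7 and Ctla2a peak in the lung effector-like cluster and come next in proliferating-like lung cells, while Ifitm2 is highest in the MLN effector-like cluster (183 and 135 CPM).

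Of 4415 genes, those with the most similar pattern over the 12 clusters were sought in each mouse separately, by Pearson r of log2(CPM + 1). For Fgl2 these were Ero1l (r = 0.939 in mouse 1 and 0.874 in mouse 2), Ctla2a (0.874 and 0.853) and Socs2 (0.847 and 0.845). For Igfbp7 they were Calca (0.916 and 0.963), Hlf and Hdc, and for Ctla2a they were Dusp5 (0.937 and 0.937), Rara and Cish. Ifitm2 was closest to Ptpn13 (0.871 and 0.918), Baz1a and Lgmn, and Ifitm3 to Capza2 (0.771 and 0.741), Plac8 and Gbp7, an interferon-inducible GTPase gene. For Ifitm1 no gene passed 0.517 in both mice. Fgl2 and Igfbp7 had r = 0.839 and 0.791, whereas Ifitm2 and Ifitm3, neighbors on the chromosome, had r = 0.356 and 0.0671. These r are over 12 clusters that share 4 libraries and differ in depth, and are a description.

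Within lung effector-like cells, the genes were detected together more often in some pairs than in others. For each pair, the number of cells with both genes was divided by the number that the product of the single shares gives. Ifitm2 and Ifitm3 had the highest ratio of the 10 pairs without Ifitm1, with 70 cells against 38.1 in lung 1 (1.84) and 21 against 9.52 in lung 2 (2.21). Ifitm2 was found in 53.4% and 40.4% of cells with Ifitm3 and in 24.6% and 13.6% of cells without it. Fgl2 and Igfbp7 were found together in 200 cells against 158 (1.27) and in 64 against 46.3 (1.38), and Fgl2 was in 85.8% and 85.3% of cells with Igfbp7 and in 61% and 53.6% of cells without. Igfbp7 was also found with Ifitm2 (1.3 and 1.68) and with Ifitm3 (1.49 and 1.59) above the product.

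Ctla2a had lower ratios than the pairs above. With Fgl2 its ratio was 1.08 and 1.03, with Igfbp7 1.09 and 0.972, with Ifitm2 1.02 and 0.9 and with Ifitm3 0.94 and 1.07, all close to 1, and after thinning these ratios ranged from 0.544 to 1.25. In all, 7 of the 10 pairs were above 1 in both libraries, with a median ratio of 1.15, and deeper cells carry more of any gene. Only 4 of the 10 were above 1.2 in both. Fgl2 with Ifitm2 and Fgl2 with Ifitm3 were not among them, so Ctla2a was not alone in this. After thinning, Ifitm2 with Ifitm3 (2.64 and 2.82), Fgl2 with Igfbp7 (1.44 and 1.42), Igfbp7 with Ifitm2 (1.48 and 2.04) and Igfbp7 with Ifitm3 (1.52 and 1.27) were above 1 in both libraries, and 6 of the 10 pairs were. In the smaller effector-like cluster at a resolution of 1.2, 7 of the 10 pairs were above 1 in both libraries, but 2 in place of 4 were above 1.2 in both, and the median ratio was 1.07. Pairs with Ifitm1 rested on the 5 lung 1 cells and are not read.

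Isg15 was set against the same genes. Its ratio was below 1 in both libraries with Igfbp7 (0.684 and 0.749), above 1 in both with Ifitm2 (1.03 and 1.56) and Ifitm3 (1.11 and 1.49), and on either side of 1 with Fgl2 (0.894 and 1.12) and Ctla2a (0.945 and 1.03). After thinning, it was 1.68 and 2.11 with Ifitm3, from 7 and 5 cells with both genes, and 0.673 and 1.78 with Ifitm2, from 5 and 3 cells.

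Not every effector-like cell carried the genes. Of lung effector-like cells, 17.4% in lung 1 and 11.5% in lung 2 carried Fgl2, Igfbp7 and Ctla2a together, 12.8% and 16.3% carried none of these 3, and 9.02% and 13.2% carried none of the 6. These shares rest on detection at the depth of these cells. Among migrating-like lung cells, 76.2% and 80.7% carried none of the 6, and 0 of 122 and 0 of 57 carried Fgl2, Igfbp7 and Ctla2a together, which allows shares of up to 2.46% and 5.26%.

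**Figure D4:**
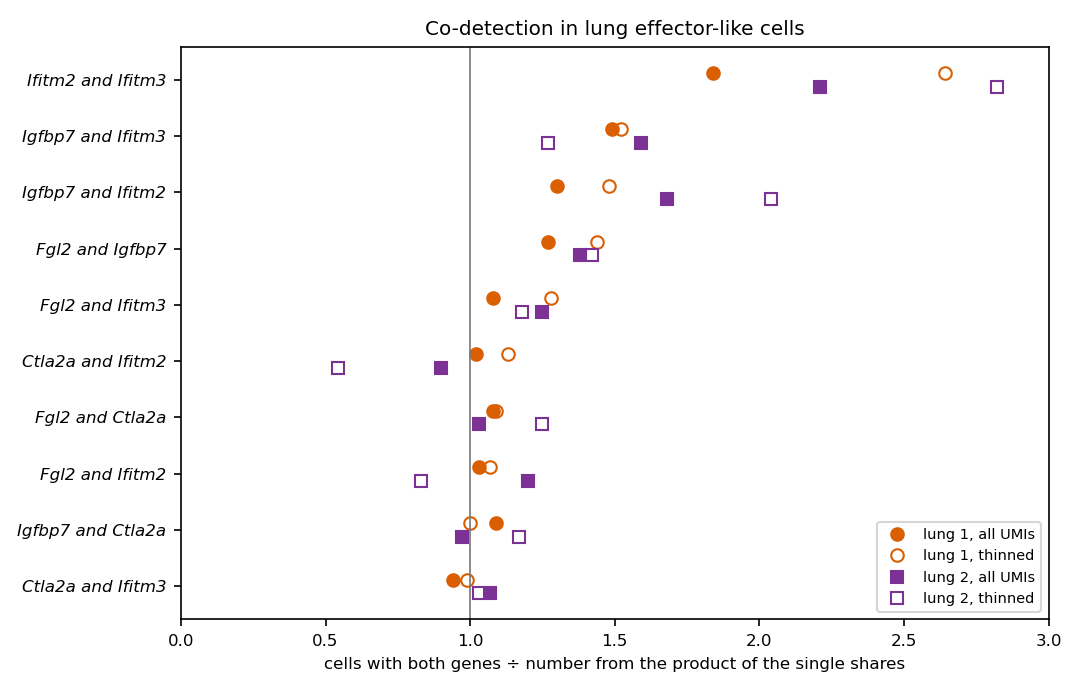
Number of lung effector-like cells with both genes of a pair, divided by the number from the product of the single shares (x axis, 1 marked by a line), for the 10 pairs without Ifitm1 (y axis), in lung 1 (orange circles) and lung 2 (purple squares), with all UMIs (filled) and with cells thinned to 2000 UMIs (open). Ifitm2 with Ifitm3 has the highest ratios (1.84 to 2.82), and the pairs of Ctla2a lie between 0.544 and 1.25.

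The medLN, which drains the lung, and the MLN, which drains the gut, were then compared in IL-4eGFP+ cells of the later run. Fgl2 and Igfbp7 were higher in medLN. Fgl2 was at 17.2 and 18.8 CPM in medLN 1 and medLN 2 and at 4.69 and 8.21 CPM in MLN 1 and MLN 2, with both medLN samples above both MLN samples. Its log2 fold was 1.45 ± 0.22 (SE, n = 2 samples per node, edgeR adjusted p = 0.0254). It was detected in 3.69% and 4.41% of medLN and 1.41% and 2.84% of MLN cells. Of the 11263 genes tested, 0.675% were called higher in medLN and 0.604% lower.

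Igfbp7 was counted at 15.1 and 7.3 CPM in medLN and 2.95 and 1.89 CPM in MLN, from 143, 69, 27 and 20 UMIs. Its log2 fold was 2.21 ± 0.40 (SE, n = 2 per node, edgeR adjusted p = 0.0386). Endothelial markers summed to 78.2 and 78.3 CPM in medLN and 94.1 and 80.3 CPM in MLN, from 7, 6, 6 and 6 of 12 genes. Both calls were lost under several alternatives. Among the alternatives, leaving out cells with at least 1 UMI of a listed marker of another cell type removed 39.6% to 48.5% of the IL-4eGFP+ cells of a sample. The markers include Ccr2, which effector T cells carry too, at 41.6 to 54.3 CPM in these samples. This setting is therefore not specific to other cell types. Fgl2 was not called with no filter on low counts (adjusted p = 0.0776 in edgeR), without medLN 1 (0.154) or without medLN 2 (0.201). Igfbp7 was not called with no filter (adjusted p = 0.108 in edgeR), without medLN 1 (0.238), without MLN 2 (0.141), with cells thinned to equal depth (log2 fold 1.43, adjusted p = 0.275) or without cells that carried a marker of another cell type (0.83, 0.676). Over the 11 alternatives run for each, the adjusted p ranged from 0.00035 to 0.201 for Fgl2, with 8 calls, and from 0.000155 to 0.676 for Igfbp7, with 6 calls.

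Ctla2a was at 39.3 and 70.4 CPM in medLN and 28.5 and 36.8 CPM in MLN, which did not overlap. The difference was not called (log2 fold 0.73 ± 0.24, n = 2 per node, edgeR adjusted p = 0.248), but with the mouse as a block it was (0.71, edgeR adjusted p = 0.0268), and over its 11 alternatives, 2 of which gave a call, the adjusted p ranged from 0.0214 to 1. Ifitm2 (71.8 and 103 against 72 and 119 CPM) and Ifitm3 (52.2 and 37.9 against 25.9 and 57 CPM) overlapped between the nodes, with log2 folds of -0.15 ± 0.23 and 0.10 ± 0.31.

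Ifitm1 had too few UMIs for the test, with 2, 3 and 2 in medLN 1, medLN 2 and MLN 1 but 203 in MLN 2. There, 8 cells with 3 or more UMIs held 190 of the 203. All 8 carried Cd3e and none carried a basophil or mast cell gene, and they held 127 UMIs of Ifitm2 and 80 of Ifitm3. No TCRβ V segment was counted in more than 2 of the 8 and no TCRα V segment in more than 1. How many of the 8 had any V segment UMI was not examined, so whether their segments differed cannot be read. The level of Ifitm1 in MLN 2 thus came from few cells without basophil genes, unlike the 2 barcodes that held most of it in lung.

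In IL-4eGFP- cells the genes were low in both nodes and none was called between them. Fgl2 was at 1.95 and 3.59 CPM in medLN and 0.87 and 1.15 CPM in MLN, from 7 to 27 UMIs (log2 fold 1.39 ± 0.46, n = 2 per node, edgeR adjusted p = 0.586). Log2 folds of the others were 0.15 ± 0.21 for Ctla2a, 0.77 ± 0.31 for Ifitm2 and -0.32 ± 0.30 for Ifitm3, and Igfbp7 (0 to 7 UMIs) and Ifitm1 (0 or 1 UMI) could not be tested. Of the 4 genes tested, Fgl2 and Ifitm2 had an unadjusted edgeR p under 0.05 (0.0102 and 0.0296), and DESeq2 called none. Only 0.178% of 10684 genes were called here, 19 in number and 65 with the mouse as a block, so few genes of any kind passed the test.

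The difference of the gate effect between the nodes was tested as well, and was called for none of the 5 genes tested by edgeR or DESeq2, with none at an unadjusted p under 0.05. It was 0.07 ± 0.67 for Fgl2, 0.68 ± 1.41 for Igfbp7, 0.58 ± 0.41 for Ctla2a, -0.91 ± 0.54 for Ifitm2 and 0.42 ± 0.58 for Ifitm3 on the log2 scale (SE, n = 2 per node and gate). Of 11535 genes, 18 were called (0.156%), and 81 with the hashtag sample as a block. A medLN difference of Fgl2 in IL-4eGFP+ cells was therefore not shown to differ from that in IL-4eGFP- cells.

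IL-4eGFP+ node cells had more of all 5 genes tested than IL-4eGFP- node cells, in each of the 4 hashtag samples. The 4 samples of a gate are both nodes of the same 2 mice, and the main fit held the organ but not the mouse. Ifitm2 went from 2.8 to 8.25 CPM in the IL-4eGFP- samples to 71.8 to 119 CPM in the IL-4eGFP+ samples, a log2 fold of 3.96 ± 0.25 (SE, n = 4 samples per gate, edgeR adjusted p = 4.37e-08). Igfbp7 had a log2 fold of 3.47 ± 0.44 (edgeR adjusted p = 2.32e-05) and Fgl2 of 2.51 ± 0.23 (1.13e-06). For Ifitm3 it was 2.14 ± 0.28 (edgeR adjusted p = 2.49e-05) and for Ctla2a 1.96 ± 0.21 (5.35e-06). All 5 were called higher where 31.3% of 11035 genes were called higher and 31.8% lower. The 5 calls held in each alternative in which the gene could be tested, though Ifitm3 fell to a log2 fold of 0.69 without cells that carried markers of other cell types. That setting removed 39.6% to 48.5% of the cells of a sample, T cells with Ccr2 among them. NK and CD8 T cell markers summed to 81.7 to 91.4 CPM in IL-4eGFP- and 8.21 to 14.8 CPM in IL-4eGFP+ samples, and the macrophage and monocyte list to 12.7 to 27.4 and 81.6 to 171 CPM. Their part in the folds was not tested beyond that. Ifitm1, at 0.211 to 19.2 CPM in the IL-4eGFP+ and 0 to 0.127 CPM in the IL-4eGFP- samples, did not pass the filter on low counts.

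Set side by side over both runs, which were sequenced and normalized separately, Fgl2 ran from lung (270 ± 73.7 CPM, mean ± SD, n = 2) over IL-4eGFP+ medLN (18 ± 1.14) and MLN of the later (6.45 ± 2.49) and first run (6.08 ± 2.83) to IL-4eGFP- medLN (2.77 ± 1.16) and MLN (1.01 ± 0.195). The ranges of both IL-4eGFP+ MLN groups overlapped, and no others did. Igfbp7 followed the order lung (90.4 ± 27.5), IL-4eGFP+ medLN (11.2 ± 5.52), IL-4eGFP+ MLN (2.42 ± 0.748), first-run MLN (0.83 ± 0.0966), IL-4eGFP- medLN (0.787 ± 0.172) and IL-4eGFP- MLN (0.255 ± 0.36), where first-run MLN and IL-4eGFP- medLN were not apart. Ctla2a ran from lung (372 ± 53.8) over IL-4eGFP+ medLN (54.9 ± 22) and MLN (32.6 ± 5.89) to IL-4eGFP- medLN (10.4 ± 3.15), first-run MLN (10.1 ± 6) and IL-4eGFP- MLN (8.99 ± 0.118), and the last 3 overlapped. For Ifitm2, IL-4eGFP+ node MLN (95.3 ± 33), IL-4eGFP+ medLN (87.2 ± 21.8) and lung (82 ± 23.7) were not apart and lung was not the highest. First-run MLN (36.2 ± 1.67), IL-4eGFP- medLN (6.59 ± 2.34) and IL-4eGFP- MLN (3.7 ± 1.27) followed without overlap. Within the first run, the only one with lung, Ifitm2 was higher in lung than in MLN. Ifitm3 in lung (73.5 ± 16.7) was above IL-4eGFP+ medLN (45 ± 10.1) and MLN (41.4 ± 22), which overlapped, and first-run MLN (11.6 ± 8.47), IL-4eGFP- MLN (9.4 ± 3.62) and IL-4eGFP- medLN (7.79 ± 2.93) overlapped below them. Ifitm1 was highest on average in IL-4eGFP+ node MLN (9.69 ± 13.4) and in lung (9.06 ± 3.69), each with most UMIs in few cells, and at most 0.32 CPM on average elsewhere. Igfbp7, Ctla2a, Ifitm2 and Ifitm3 were all lower in first-run MLN than in IL-4eGFP+ MLN of the later run. Only the first run had a TCR criterion, and only its gene table held Gm49391 and Gm45717, which overlap Ctla2a and Ifitm2. The effect of these differences on the counts was not tested. The place of lung among groups of the later run thus also holds a difference between runs and cannot be read as one between organs.

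To ask in cells that the rule did not use whether the genes go with an effector state, IL-4eGFP+ node cells were split by detection of Il1rl1, which encodes the IL-33 receptor ST2 and is one of the markers of the lung effector-like cluster. There were 70 to 125 cells with Il1rl1 per hashtag sample. Fgl2 was at 100 and 101 CPM in medLN cells with Il1rl1 and 10.6 and 10.4 CPM in those without, and at 22.9 and 47.6 against 3.68 and 4.16 CPM in MLN cells (log2 fold 3.32 ± 0.17, n = 4 samples, edgeR adjusted p = 1.44e-09). Fgl2 was higher with Il1rl1 in 4 of 4 samples. Foxp3 averaged 12.7 CPM with and 7.95 CPM without Il1rl1, which was not called (log2 fold 0.78 ± 0.32, edgeR adjusted p = 0.0885).

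Igfbp7 was at 84.3 and 32.8 CPM with Il1rl1 in medLN 1 and medLN 2 but 8.33 and 8.11 CPM in MLN 1 and MLN 2, and without it at 9.58, 4.67, 2.65 and 1.25 CPM (log2 fold 2.84 ± 0.37, n = 4 samples, edgeR adjusted p = 3.14e-05). Ctla2a was at 101 to 161 CPM with and 23.4 to 61.1 CPM without Il1rl1 (log2 fold 1.83 ± 0.21, edgeR adjusted p = 5.92e-06). Ifitm2 was at 202 to 376 CPM with and 60.4 to 92.2 CPM without (2.08 ± 0.17, edgeR adjusted p = 2.5e-07), and Ifitm3 at 68.8 to 186 CPM with and 23.5 to 45.1 CPM without (2.23 ± 0.25, edgeR adjusted p = 5.57e-06). Ifitm1 did not pass the filter on low counts, with 78 CPM (77 UMIs) with and 13.1 CPM without Il1rl1 in MLN 2, and in the other 3 samples no UMI with Il1rl1 and 2 or 3 UMIs without. All 5 genes tested were higher with Il1rl1, where 14.6% of 10273 genes were called higher and 11.5% lower.

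Detection of Il1rl1 picks deeper cells, with a median of 5016.5 to 6364 UMIs against 3118 to 3595. With every cell thinned to 2000 UMIs, all 5 were still called, Igfbp7 with an edgeR adjusted p of 0.0201, while the number of genes called in all went from 2682 to 636. Only 34 to 70 cells with Il1rl1 per sample were left then.

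Since Fgl2 is known from regulatory T cells, IL-4eGFP- node cells were split by detection of Foxp3, the lineage factor of these cells, with 189 to 257 cells with Foxp3 per sample. Fgl2 was at 13.8 and 20.3 CPM with Foxp3 in medLN 1 and medLN 2 and 7.41 and 6.18 CPM in MLN 1 and MLN 2, and at 0.271 to 0.925 CPM without (log2 fold 4.31 ± 0.43, n = 4 samples, edgeR adjusted p = 8.61e-07). Counts were small, and Foxp3+ cells, 220 of 2167, 257 of 2091, 189 of 2249 and 232 of 2167 cells in medLN 1, medLN 2, MLN 1 and MLN 2, held 13 of 15, 21 of 27, 5 of 7 and 5 of 9 Fgl2 UMIs. Ifitm2 was at 14.9 to 30 CPM with and 1.14 to 4.78 CPM without Foxp3 (2.64 ± 0.32, edgeR adjusted p = 8.6e-06). Both were higher in 4 of 4 samples.

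Ifitm3 was at 12.4 to 20.8 CPM with and 4.16 to 11.9 CPM without Foxp3 (log2 fold 1.00 ± 0.35, n = 4 samples, edgeR adjusted p = 0.0414), a call that was lost without MLN 1 (0.139), medLN 1 (0.0741) or medLN 2 (0.136) and without cells with other markers (0.104). Over 11 alternatives its adjusted p ranged from 0.000843 to 0.139. Ctla2a was at 7.41 to 16 CPM with and 7.09 to 12.8 CPM without Foxp3, overlapping (0.12 ± 0.29, edgeR adjusted p = 0.807). Igfbp7 had no UMI in Foxp3+ cells of any sample and too few for a test. This allows levels of up to 2.91 to 4.45 CPM, above the 0 to 1.03 CPM in cells without Foxp3. Whether Igfbp7 goes with Foxp3 therefore cannot be read. Ifitm1 had 1 UMI in all, in a cell of MLN 2 without Foxp3. Thus 3 of 4 genes tested were called higher, where 14.7% of 9807 genes were called higher and 11.7% lower. Ctla2a was called with Il1rl1 but not with Foxp3, although the splits were not tested against each other. Il1rl1 itself was higher with Foxp3, at a mean of 10.7 against 0.364 CPM (log2 fold 4.59 ± 0.45, edgeR adjusted p = 6.94e-07). Detection of Il1rl1 is thus not particular to effector cells, and the splits cannot be read as 2 separate states.

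**Figure D5:**
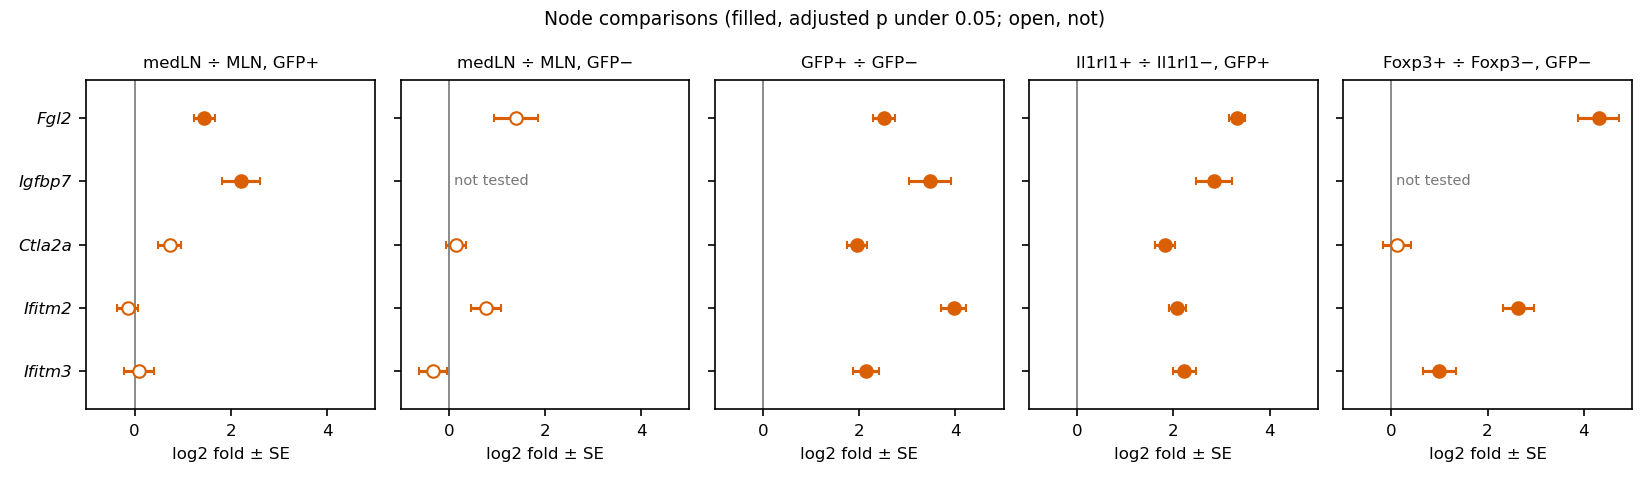
Log2 fold with its SE (x axis) of 5 of the genes (y axis) in 5 comparisons of medLN and MLN cells, 1 panel each; filled points have an edgeR adjusted p under 0.05, open points do not, and n is 2 samples per group in the 2 panels on the left and 4, from 2 mice, in the others. Fgl2 is filled in all panels but the second, Ctla2a is near 0 only in the second and last, and Ifitm2 and Ifitm3 are near 0 between the nodes of IL-4eGFP+ cells.

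Other genes of the pathways were read from lists. In lung against MLN, where 17.0% of 10588 genes were called higher and 14.0% lower, 1 of 40 interferon-stimulated genes was higher in lung and 27 were lower, with a median log2 fold of -1.15 against -0.0052 over all genes. The gene that rose was Gbp7 (0.94 ± 0.18, edgeR adjusted p = 0.00345), and among those that fell were Ifit1 (-3.03), Rtp4 (-2.52) and Isg15 (-1.87), all antiviral or interferon-induced genes. Ifitm2 and Ifitm3, chosen as high in lung, were thus higher there beside lower levels of most genes of this list. The MLN libraries differed in such genes, with Isg15 at 403 CPM in MLN 1 and 137 CPM in MLN 2. The interferon-responding-like cluster held 405 MLN 1 and 37 MLN 2 cells, and its part in these folds was not tested. Of 5 interferon receptor genes tested, Ifngr1 (2.91), Ifngr2 (1.79) and Ifnar1 (1.45) were higher in lung and Ifnar2 (-0.55) was lower.

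Of a list of effector genes of regulatory T (Treg) cells and FGL2 receptor genes, 11 of 16 genes tested were higher in lung and 2 lower. Il2ra (2.79), encoding the high-affinity chain of the IL-2 receptor, and the inhibitory receptor gene Ctla4 (2.51) had the largest folds upwards, and Tigit (-1.58) and Ikzf2 (-1.53) fell. All 10 tissue residency genes were higher in lung, led by Rgs2 (5.75), Nr4a1 (4.96) and Crem (4.68). Only lung was digested, and the part of tissue processing in these folds was not tested. Cathepsins and their inhibitors were split, with 5 of 13 higher, among them Ctsw (1.97), and 5 lower, among them Cst7 (-0.99). Of the IGF axis, 2 of 5 genes tested were higher and 1 lower, and the 1 other IFITM gene that could be tested was not called.

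Between medLN and MLN IL-4eGFP+ cells few of all genes were called (0.675% higher and 0.604% lower), while some of these short lists held a larger share. Of 9 tissue residency genes tested, none was higher in medLN and 2 were lower, among them Cxcr6 (-0.46), whereas all 10 were higher in lung against MLN. None of 39 interferon-stimulated genes was higher in medLN and 1 was lower, Gbp2 (-0.58). Igfbp4, a relative of Igfbp7 that is high in naive and migrating T cells, was the only one of 5 IGF axis genes called (1.39, edgeR adjusted p = 0.0127). Of 19 Treg effector and FGL2 receptor genes, Icos was higher and 3 were lower, among them Ebi3 (-0.83) and Tigit (-0.41). In the IL-4eGFP- cells, 2 of 16 genes of this list were higher in medLN, among them Ikzf2 (0.60), and no gene of the other lists was called.

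Between the gates, most interferon-stimulated genes were lower where Ifitm2 and Ifitm3 were higher, with 5 of 39 genes higher in IL-4eGFP+ cells and 28 lower, led by Usp18 (-1.96) and Ifit2 (-1.34), and a median log2 fold of -0.67 against -0.02 over all genes, of which 31.3% were called higher and 31.8% lower. Cathepsins and their inhibitors were higher for 8 of 14, led by Ctsb (0.95), and lower for 4, led by Ctsw (-2.71). Treg effector and FGL2 receptor genes were higher for 12 of 18, led by Maf (3.06) and Tigit (2.93), and lower for 4, led by Foxp3 (-3.07).

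In node cells with Il1rl1, where 14.6% of all genes were called higher and 11.5% lower, 13 of 17 Treg effector and FGL2 receptor genes were higher, led by Gzmb (4.14) and Il10 (3.63), and 2 were lower, Tigit (-1.50) and Ikzf2 (-1.21). Of 38 interferon-stimulated genes, 2 were higher, Gbp7 (1.36) and Gbp2 (0.56), and 9 were lower, led by Ifit1 (-1.89). Ifitm2 and Ifitm3 thus rose where more genes of the interferon list fell than rose. In IL-4eGFP- cells with Foxp3, all 15 Treg effector and FGL2 receptor genes tested were higher, led by Gzmb (4.39), Tigit (4.09) and Itgae (3.98), so that Tigit moved the opposite way to the Il1rl1 split while Fgl2 rose in both. Of 38 interferon-stimulated genes, 5 were higher and 7 lower there, shares that lie near the 14.7% and 11.7% of all genes.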

How the data were processed

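CD4+ T cells were profiled by 10x 5′ single-cell RNA sequencing. The authors deposited unnormalized UMI counts per gene and barcode and, for the nodes, hashtag counts per barcode, made with Cell Ranger (2.1.1 and 3.0.1 for lung and MLN, 6.1.2 for the nodes, per the submitters' processing notes) on mm10. Both sequencing runs of a lung or MLN library were combined by the authors, and their TCR tables list productive chains.

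A barcode was kept if it had more than 500 UMIs and more than 500 genes, less than 7% of its UMIs from mitochondrial genes and a ratio of log10 genes to log10 UMIs above 0.8. Lung and MLN cells also needed a productive TCRα and TCRβ chain, which left 4714 cells. Doublets were treated by hashtag in the nodes (HTODemux in Seurat 5.3.0, with 1256 and 1280 doublets and 52 and 70 barcodes without a hashtag removed), and in lung and MLN no doublet caller was run. Seurat clusters used 1994 variable genes without the 6 genes and TCR genes, 15 components and a resolution of 0.8. A cluster was named from at least 3 listed markers among its top 50 genes by fold.

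UMI counts were summed per sample and tested with edgeR 4.0.16 (R 4.3.3, quasi-likelihood, filterByExpr, TMM, Benjamini-Hochberg over all genes tested, threshold 0.05). TCR genes were left out, and so was the gene that defined a split. Alternatives were DESeq2 1.42.0, its size factors, no filter on low counts, a replicate block, each sample left out, thinning to 2000 UMIs, other TCR criteria, other resolutions and, chosen after seeing the data, removal of cells with basophil or other cell type markers. Totals were 2798232 to 14512767 UMIs per lung or MLN sample and 7546083 to 10636927 per node sample. Shares have exact Clopper-Pearson 95% intervals, and limits for a count of 0 are 3 counts of the total. Both cover counting error only. The fits were tested on simulated data, where of 200 genes changed by 2 on the log2 scale 192 were recovered for lung against MLN (20 false calls among 10425 genes), 197 for IL-4eGFP+ medLN against MLN (13 among 11126) and 187 for the Il1rl1 split (12 among 10116). Changed genes were drawn from those with a mean of at least 20 counts, and samples were simulated as independent. Recovery of genes with fewer counts, of smaller folds or in paired samples was thus not tested.

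In the nodes the hashtags name mouse and organ, so equal numbers are 1 animal. Deviations of same-numbered samples correlated at r = 0.236 and 0.112 between nodes in IL-4eGFP+ and IL-4eGFP- cells, at 0.194 and 0.169 between gates, and at 0.0955 to 0.115 within the splits. Lung and MLN libraries of equal number were read as 1 mouse from the study's design, and gave r = 0.0399.

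All 6 genes are given in every comparison. Named list genes are the called ones with the largest folds, at most 3 in each direction with a mean of at least 20 CPM, plus a few listed ones. Genes of similar pattern are the 3 with the highest lower r of both mice, among genes with at least 50 CPM in 1 cluster of each. The genes and lists were chosen with earlier results of these data known.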

Additional observations from a re-analysis of the deposited data

Results flagged for a closer look

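Ifitm1 stood apart in 1 sample of a group of 4 on 2 occasions. In the IL-4eGFP+ node library, MLN 2 had 19.2 CPM against 0.211, 0.317 and 0.218 CPM in medLN 1, medLN 2 and MLN 1, a gap that made up nearly all of the group's range. The 8 cells that held 190 of these 203 UMIs had a median of 9078.5 UMIs per cell, 4 of them carried Il1rl1 and 7 carried Gata3, and the most in 1 cell was 87. In the IL-4eGFP- library, MLN 2 had 0.127 CPM, which is 1 UMI, and the other 3 samples had none. For normally distributed values, chance alone gives such a gap in about 1 in 20 groups, and 12 groups of 4 samples were examined. This rate does not hold for counts near 0. A single UMI in 1 of 4 samples always stands apart, so the flag in the IL-4eGFP- library carries no information.

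In barcodes outside of all comparisons, Ifitm1 was far above the cells kept. Lung barcodes with 3 or more basophil and mast cell genes and no TCR chain had Ifitm1 at 7075.8 CPM in lung 1 (51 barcodes) and 6128.3 CPM in lung 2 (29 barcodes), against 11.7 and 6.45 CPM in the cells kept. Cd3e was detected in 2 and 1 of these barcodes. Their part in the Ifitm1 counts of the kept cells was not tested beyond leaving out the barcodes with these genes, after which 4 and 2 UMIs were left.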

How the results depend on the processing

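With 2 samples per organ or node, counts of called genes depended on the setting. For lung against MLN, 3284 genes were called, 1833 by DESeq2, 2018 with thinned cells, 1808 without cells carrying markers of other cell types and 1907 to 3678 with 1 library left out. For medLN against MLN in IL-4eGFP+ cells, 144 were called, 47 with no filter on low counts and 13 (without medLN 1) to 191 with 1 sample left out. In IL-4eGFP- cells, 19 were called, 2 with no filter, 65 with the replicate block, 8 with thinned cells, 9 without other marker cells and 98 to 194 with 1 sample left out. For the difference of the gate effect, 18 were called, 37 by DESeq2, 68 with no filter, 81 with the replicate block, 6 with thinned cells and 4 to 11 with 1 sample left out. For the Il1rl1 split, 2682 were called, 636 with thinned cells and 977 without other marker cells, and for the Foxp3 split 2594, 1390 and 1284. Fewer cells or samples entered where cells or samples were left out. The other causes were not tested.

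Of 249 folds of the 6 genes in the nodes under settings other than the removal of marker cells, 224 kept direction and side of the threshold, 10 lost and 2 gained a call and 13 changed sign, none of them of a called gene. Between nodes in IL-4eGFP+ cells, Ifitm2 ranged from -0.47 to 0.28 and Ifitm3 from -0.36 to 0.80 with 1 sample left out, and Ifitm3 was -0.02 with thinned cells. In IL-4eGFP- cells, Ctla2a ranged from -0.19 to 0.43 and Ifitm3 from -0.77 to 0.15. For the difference of the gate effect, Fgl2 ranged from -0.25 to 0.52 and Igfbp7 from -3.94 to 2.00, and Igfbp7 was -0.26 with thinned cells. In the Foxp3 split, Ctla2a ranged from -0.23 to 0.33. The replicate block changed the call of Ctla2a between nodes in IL-4eGFP+ cells (0.71, edgeR adjusted p = 0.0268) and no other member call. Ifitm2 in IL-4eGFP- cells was called only without medLN 1 (1.10, edgeR adjusted p = 0.0363). The lung folds, which are those the genes were chosen by and support nothing, ranged over the alternatives for Fgl2 from 5.22 to 6.18, Igfbp7 from 6.20 to 9.04, Ctla2a from 4.84 to 6.11, Ifitm2 from 0.90 to 1.64, Ifitm3 from 2.15 to 3.82 and Ifitm1 from 4.16 to 5.43, which could not be fitted without the barcodes with basophil genes. Few UMIs limit Igfbp7 in MLN and Ifitm1 in every group.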
